A study of Rattus norvegicus with 2 samples.

Results

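Icam1, Vcam1, Selp and Sele encode the adhesion molecules of the vessel wall that catch circulating leukocytes. They were taken by gene symbol from both libraries of a rat arthritis study, and all 4 were found, of 18147 genes listed for both libraries. Each symbol had 1 entry, ENSRNOG00000020679 for Icam1, ENSRNOG00000014333 for Vcam1, ENSRNOG00000002794 for Selp and ENSRNOG00000002723 for Sele. They were followed across endothelium, synovial lining, fibroblast subsets and macrophages, each gated by other marker genes. The study dissociated Lewis rat cartilage and sequenced the RNA of single cells from droplets, in 2 libraries. The control library came from rats whose treatment is labelled none (the series text calls its controls sham). The second library is of collagen-induced arthritis (CIA): its rats received type II collagen with Complete Freund's Adjuvant and were collected on day 14. The sources used here do not give the rats' age, how many animals were in a library or which joint was sampled.

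P-selectin (Selp) and E-selectin (Sele) bind sugars on leukocytes and let the cells roll along the endothelium. P-selectin is stored in the granules of endothelial cells and platelets and reaches the surface within minutes, while E-selectin is made after stimulation. ICAM-1 (Icam1) and VCAM-1 (Vcam1) are immunoglobulin-type ligands of leukocyte integrins, LFA-1 and Mac-1 for the first and VLA-4 for the second, and they hold the rolling cell firmly. All 4 genes respond to TNF and IL-1 through NF-kB in cultured endothelium. Fibroblasts of the joint are known to carry VCAM-1, and macrophages to carry ICAM-1.

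The promoters of the genes were looked up because NF-kB is a known inducer, and those of the immunoglobulin-type pair are shown. The sequences are RefSeq's, on the rat build GRCr8. The Icam1 stretch is the 93 bases before the annotated gene, chr8:27829595-27829687, plus strand. The Vcam1 stretch is the 250 bases before the gene, chr2:206742784-206743033, minus strand. Capitals mark each match to GGNNNTTCC on either strand, a short form of the NF-kB site chosen with the sequences in view, and no other motif was searched.
Icam1: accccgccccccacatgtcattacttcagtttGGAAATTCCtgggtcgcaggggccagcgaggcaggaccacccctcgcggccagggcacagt
Vcam1: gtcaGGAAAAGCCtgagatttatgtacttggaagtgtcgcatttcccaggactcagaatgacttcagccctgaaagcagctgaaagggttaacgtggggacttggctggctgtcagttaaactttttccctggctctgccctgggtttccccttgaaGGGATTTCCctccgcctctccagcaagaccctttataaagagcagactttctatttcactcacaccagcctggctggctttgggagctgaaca
The Icam1 match lay 61 to 53 bases before the gene. The Vcam1 matches lay 246 to 238 and 93 to 85 bases before it. The Icam1 window of 300 bases held 2 matches, 1 of them outside the printed stretch. Such letters occurred in 6132 of 33469 rat promoter windows of 300 bases (18.3%), so a match is a description of the sequence and no site of binding. The printed stretches, of 93 and 250 bases, are shorter than these windows. The Sele window of 300 bases lay wholly inside the annotated gene and held 0 matches. Selp had no window in the promoter set. Neither is printed.

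After filtering, 5349 control and 8409 CIA cells remained, with a median of 11872 and 10473 UMIs per cell (unique molecular identifiers, each the tag of 1 RNA molecule). The label names cartilage, but cells rich in Col2a1, the cartilage collagen, were 6.11% of control and 0.488% of CIA cells. Endothelium made up 10.5% of control and 5.73% of CIA cells (562 and 482), lining 7.65% and 14.9% (409 and 1251), other fibroblasts 40.4% and 32.7% (2161 and 2746), and macrophages 22.2% and 36.8% (1185 and 3094). Endothelial cells had UMIs of a median of 10 of 11 endothelial markers in both libraries. The libraries shared 52 barcodes. Levels are UMIs summed over a class per 1000000 UMIs of that class (CPM), with exact 95% intervals. With 1 library per group there is no replicate and no test. Every interval covers counting error only, and every ratio compares these 2 libraries. A difference was counted as passing the size rule when it was at least 2-fold, its interval lay wholly beyond 1.5-fold and both sums together held at least 100 UMIs. In a class sum, a change in the mix of cells and a change of RNA per cell cannot be told apart. By the labels' protocols the counts come from the 3' end of transcripts, so levels are compared within a gene and not between genes.

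The 4 genes followed 3 patterns across the tissue. Selp and Sele were endothelial, Vcam1 was highest in 1 fibroblast subset and, in the control library, in part of the lining, and Icam1 was highest in macrophages of the control library and present in every class gated. In the control library the endothelium held 63.9% of all Selp UMIs, 63.7% of Sele, 13% of Icam1 and 5.80% of Vcam1. The corresponding CIA shares were 77.0%, 77.6%, 7.95% and 2.99%. Non-lining fibroblasts held 67.3% (control) and 62.5% (CIA) of the Vcam1 UMIs, and macrophages held 48.1% and 44.8% of the Icam1 UMIs. A further 28.0% of control and 13.9% of CIA Selp UMIs lay in cells that passed 2 lineage gates at once, which were left out of all classes.

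**Figure D1:**
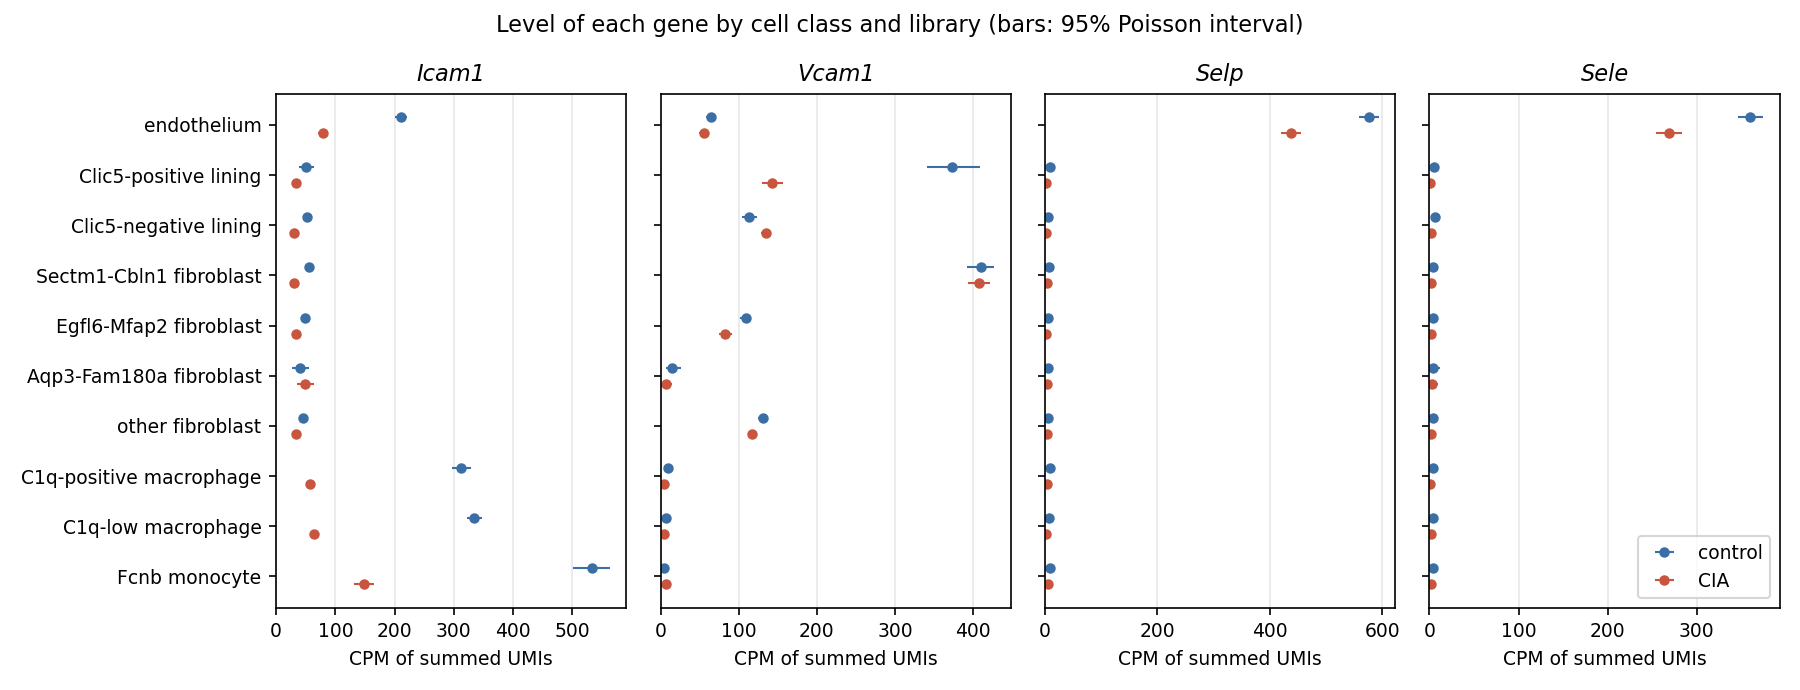
Level of each gene (CPM of summed UMIs, linear axis) by cell class in the control and CIA libraries, with exact 95% Poisson intervals that cover counting error only. Selp and Sele stand out in endothelial cells, Vcam1 in Sectm1-Cbln1 fibroblasts at 410 and 408 CPM, and Icam1 in the control macrophage subsets at 312 to 532 CPM.

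Selp, the P-selectin gene, was somewhat lower in CIA endothelium, but not in its cells with venous markers. The endothelial sum held 4087 UMIs in the control library (576 CPM, interval 558 to 594) and 2222 in the CIA library (438 CPM, 420 to 456). The ratio of CIA to control was 0.760 (0.722 to 0.801), which does not pass the size rule. The share of endothelial cells with a Selp UMI was 58.7% (54.5 to 62.8) in control and 41.7% (37.3 to 46.2) in CIA. After each cell was thinned to 4000 UMIs, which removes the difference in depth (median 9926 and 8162 UMIs), the shares were 47.5% and 32.0%. Cells with at least 1 Selp UMI had similar levels in both libraries, 886 and 984 CPM. The lower sum went with fewer positive cells and not with a lower level in positive cells.

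Endothelial cells were divided by markers of vessel type, without use of the 4 genes. Cells with UMIs of both Nr2f2 and Vwf, genes typical of veins, numbered 170 control and 100 CIA cells (30.2% and 20.7% of endothelium). Cells with at least 2 of 6 arterial markers numbered 115 and 119 (20.5% and 24.7%). The remainder had neither set (260 and 241 cells) or both (17 and 22 cells). In venular-marker cells Selp stood at 903 CPM in the control library (867 to 940) and 1109.9 CPM in the CIA library (1051 to 1171), a ratio of 1.23 (1.15 to 1.31). A Selp UMI was found in 80.6% and 81.0% of these cells. In arterial-marker cells it stood at 164 CPM (248 UMIs) in control and 6.06 CPM (8 UMIs) in CIA, 27.0-fold lower (13.5 to 63.3), as 1.64% of 3903 genes were lower by the size rule in these cells. Of the 248 control UMIs, 34.3% lay in a single cell, and only 28 of the 115 cells had any, so this fold rests on few cells. It was 12.5-fold when each cell had equal weight. In sub-cluster 4, described below, where 82.1% of cells had arterial markers, Selp had only 5 control and 4 CIA UMIs. Nearly all of the 248 control UMIs thus lay in arterial-marker cells outside that sub-cluster. In cells with neither marker set, the largest subset, Selp stood at 512 CPM in control (1342 UMIs) and 364 CPM in CIA (794 UMIs), a ratio of 0.711 (0.650 to 0.777). In the few cells with both sets the ratio was 0.539 (0.400 to 0.721). When the CIA subsets were weighted to the control mix of subsets, the endothelial Selp ratio moved from 0.760 to 0.95. No conclusion is drawn from this shift. The venular gate needs a Vwf UMI, and Vwf was among the genes most like Selp (r = 0.98). Depth also differed, at a median of 13748.5 and 10231.5 UMIs in venular-marker cells and 8080 and 7108 in cells with neither set.

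Outside the endothelium Selp was near zero. It stood at 6.56 (control) and 2.5 CPM (CIA) in lining, 5.35 and 2.88 CPM in fibroblasts and 8.54 and 2.52 CPM in macrophages. Between 7.17% and 9.05% of these control cells and between 2.65% and 3.44% of these CIA cells had a UMI, at median depths of 9476 to 13443 UMIs. Shares as low and as alike as these are read as background, and no empty droplets were analysed to measure it. The macrophage ratio of 0.295 (0.222 to 0.390) passed the size rule at these levels, where 4.44% of 9779 genes were lower and 0.542% higher. One control macrophage, of the C1q-positive subset, held 17 Selp UMIs, 12.8% of the control macrophage sum. Markers of megakaryocytes, the source of P-selectin-carrying platelets, made up 0.0548% of control and 0.0500% of CIA macrophage UMIs, and their part in the Selp counts was not tested.

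Sele, the E-selectin gene, was distributed much like Selp. Its endothelial sum held 2557 control UMIs (360 CPM, 346 to 374) and 1364 CIA UMIs (269 CPM, 255 to 283), a ratio of 0.746 (0.698 to 0.797) that did not pass the size rule. A UMI was present in 55.0% of control and 38.4% of CIA endothelial cells, and in 38.8% and 27.2% after thinning. In venular-marker cells the level was 496 CPM in control and 626 CPM in CIA, a ratio of 1.26 (1.15 to 1.38). One CIA cell held 17.5% of that CIA sum, and without the highest cell of each library the ratio was 1.10. In arterial-marker cells it was 137 CPM (208 UMIs) and 31.8 CPM (42 UMIs), 4.32-fold lower in CIA (3.09 to 6.17), with 31 and 19 positive cells. The mostly arterial sub-cluster 4 held 12 control and 27 CIA Sele UMIs. In cells with neither marker set it was 331 and 233 CPM, a ratio of 0.705 (0.631 to 0.788). In the 17 control and 22 CIA cells with both sets the ratio was 0.280 (0.203 to 0.381), past the size rule. Outside the endothelium Sele ranged from 3.64 to 5.90 CPM in control and from 1.22 to 1.5 CPM in CIA over lining, fibroblasts and macrophages. The fibroblast ratio of 0.412 and the macrophage ratio of 0.394 passed the size rule at these low levels. In fibroblasts 1.37% of 10910 genes were lower by that rule and 0.22% higher.

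The selectins were found together in single cells. Of control endothelial cells with a Selp UMI, 250 of 330 (75.8%) also had a Sele UMI, against 59 of 232 cells (25.4%) without Selp. In the CIA library the counts were 138 of 201 (68.7%) and 47 of 281 (16.7%). Deeper cells show more genes at once, and these shares were not thinned. UMIs of all 4 adhesion genes were present in 104 control endothelial cells (18.5%) and 44 CIA cells (9.13%), and none of the 4 in 96 (17.1%) and 175 (36.3%).

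Vcam1 in the joint was mainly a stromal transcript, and its level in non-lining fibroblasts was nearly equal in both libraries. In non-lining fibroblasts it stood at 170 CPM in control (5266 UMIs, 165 to 174) and 180 CPM in CIA (5867 UMIs, 175 to 184), a ratio of 1.06 (1.02 to 1.10). The share of fibroblasts with a UMI was 51.0% and 53.2%. The highest fibroblast level was in the subset marked by Sectm1a, Sectm1b and Cbln1, with 410 CPM in control (393 to 427) and 408 CPM in CIA (394 to 422). The ratio there was 0.995 (0.943 to 1.05), and 90.1% and 88.8% of the cells were positive.

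Other fibroblasts carried less Vcam1. The subset marked by Egfl6 and Mfap2 stood at 109 CPM in control and 82.6 CPM in CIA (ratio 0.759, 0.675 to 0.853). Fibroblasts of no subset stood at 131 and 117 CPM. The Aqp3-Fam180a subset, with 40 control and 45 CIA cells, held only 11 and 6 Vcam1 UMIs (14.5 and 6.57 CPM). Within each library the Sectm1-Cbln1 subset was above the Egfl6-Mfap2 subset, which was above the Aqp3-Fam180a subset, with no overlap of the counting intervals.

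In the lining, the sheet of Prg4-rich cells that faces the joint space, Vcam1 differed with Clic5, a lining marker, in the control library. Over all lining cells it stood at 168 CPM in control (1026 UMIs) and 136 CPM in CIA (2448 UMIs), a ratio of 0.808 (0.751 to 0.870). In the lining 1.62% of 9004 genes were lower by the size rule and 1.04% higher. Cells with a Clic5 UMI had 374 CPM in control (88 cells, 341 to 409) and 143 CPM in CIA (193 cells, 130 to 157), 2.61-fold lower (2.29 to 2.97). The positive share of these cells was 80.7% and 59.1%, and 58.0% and 35.8% after thinning. This passed the size rule, as did 3.38% of 4704 genes in the lower direction in the same cells and 2.49% in the higher direction. The Clic5-positive gate needs only 1 Clic5 UMI, and the median depth of these cells was 12230.5 (control) and 15973 UMIs (CIA). Fibroblast markers made up 3.87% and 6.12% of their UMIs. The part of these differences in the Vcam1 ratio was not tested. Lining cells without a Clic5 UMI had 114 CPM in control and 134 CPM in CIA, a ratio of 1.18 (1.07 to 1.30). In the CIA library the intervals of the 2 parts overlapped (130 to 157 and 129 to 140 CPM). No test of the difference between the 2 parts of the lining could be made with 1 library per group.

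The lining result depended on where the lining was bounded. Prg4 is a continuous measure, and 298 control and 700 CIA stromal cells lay within 1.5-fold of the limit of 10000 CPM. With cells grouped by Leiden clustering in place of gates, the Vcam1 ratio of the lining was 2.08. Only 1 cluster then counted as lining, with 148 control and 773 CIA cells, of which 74.0% passed the lining gate, and its Vcam1 level was 44.7 and 93.0 CPM. Clusters with more Vcam1 that held lining cells counted as fibroblast. One had 707 control and 1394 CIA cells, 29.2% of them lining by the gate, at 335 and 322 CPM. Another had 148 control and 17 CIA cells, 44.2% of them lining, at 501 and 535 CPM. This cluster came mostly from 1 library, and its part in the Clic5-positive ratio was not tested.

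In endothelium Vcam1 stood at 64.0 CPM in control (454 UMIs, 58.2 to 70.1) and 55.3 CPM in CIA (281 UMIs, 49.1 to 62.2), and the ratio of 0.865 had an interval of 0.743 to 1.01 that includes equality. Venular-marker cells had 95.5 and 130 CPM, a ratio of 1.36 (1.10 to 1.66). This higher sum did not come with more positive cells. A UMI was found in 80 of 170 control and 44 of 100 CIA venular-marker cells, and after thinning 74.1% and 79.0% had none. The ratio was 1.10 when each cell had equal weight. It was 1.14 without the endothelial sub-cluster of mostly control cells described below. Arterial-marker cells had 44 and 18 UMIs (29.0 and 13.6 CPM), too few for the size rule. In macrophages Vcam1 stood at 7.25 CPM in control and 4.76 CPM in CIA, with a UMI in 8.02% and 4.82% of cells, in the same range as the selectin background.

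Icam1, the ligand of the leukocyte integrins LFA-1 and Mac-1, was lower in the CIA library in every main class, and past the size rule in macrophages and endothelium. Control macrophages held 5528 UMIs (355 CPM, 346 to 364) and CIA macrophages 2254 UMIs (67.5 CPM, 64.7 to 70.3), 5.26-fold lower (5.0 to 5.52). An Icam1 UMI was found in 79.8% (77.4 to 82.1) of control and 39.8% (38.1 to 41.6) of CIA macrophages, and in 60.0% and 21.4% after thinning. In the same macrophages 434 genes were lower by the size rule and 53 higher. At 4000 UMIs per cell, 3 or more Icam1 UMIs were seen in 188 control cells (3 to 5 UMIs) and 53 (6 or more) of 1185. The CIA numbers were 42 and 1 of 3094.

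The lower Icam1 level was found in each macrophage subset, where 3.55% (C1q-positive), 3.72% (C1q-low) and 5.24% (Fcnb) of measured genes were lower by the size rule. C1q-positive macrophages, which carry the complement gene set typical of resident macrophages, stood at 312 CPM in control and 57.1 CPM in CIA, 5.47-fold lower (4.94 to 6.05). C1q-low macrophages stood at 334 and 64.6 CPM, 5.18-fold lower (4.86 to 5.52). Monocytes marked by Fcnb had the highest levels in both libraries, 532 CPM in control (502 to 564) and 148 CPM in CIA (131 to 165), 3.61-fold lower (3.17 to 4.11). Clustering without gates gave 5 macrophage clusters, and Icam1 was lower in the CIA library in all 5, from 382 to 78.4 CPM in the cluster with most control cells and from 132 to 94.5 CPM in the cluster with fewest.

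**Figure D2:**
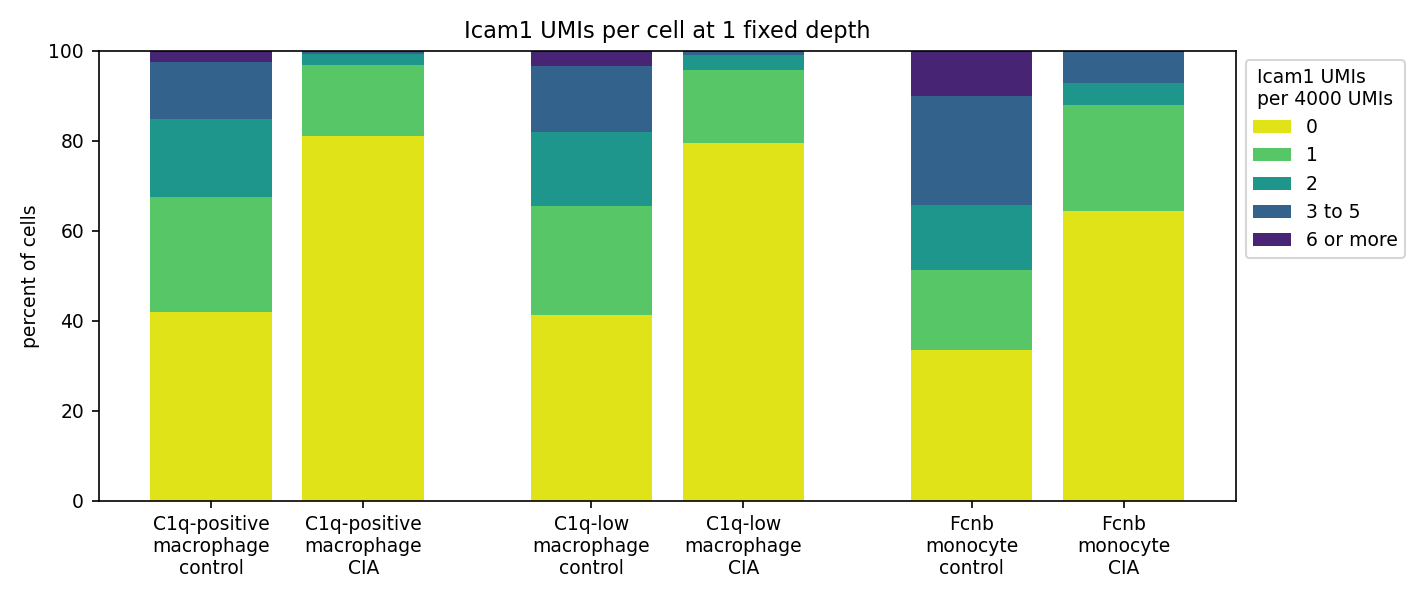
Share of cells (%) by number of Icam1 UMIs after thinning to 4000 UMIs per cell, for 3 macrophage subsets in the control and CIA libraries. The part with no Icam1 UMI is 33.5% to 42.0% of cells in the control subsets and 64.4% to 81.0% in the CIA subsets.

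Endothelial Icam1 was also lower in CIA, but the size of the difference depended on 1 group of control cells. The sum held 1496 control UMIs (211 CPM, 200 to 222) and 400 CIA UMIs (78.8 CPM, 71.3 to 86.9), 2.68-fold lower (2.39 to 2.99). A UMI was present in 59.3% and 33.2% of cells, and in 36.8% and 17.4% after thinning. Of the 4 genes only Icam1 passed the size rule in the endothelial sum, where 124 of 7952 genes were lower (1.56%) and 21 higher (0.264%). Icam1 was lower in venular-marker cells, 293 CPM in control and 132 CPM in CIA (2.22-fold, 1.87 to 2.65, with 1.39% of genes lower there), and in arterial-marker cells, 106 and 19.7 CPM (5.36-fold, 3.53 to 8.46).

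Clustering of the endothelial cells alone gave 6 sub-clusters. Sub-cluster 2 held 173 control cells and 5 CIA cells and had the highest control Icam1 level, 354 CPM. Its leading genes were Chad, RGD1305645, Cxcl1, Atf3 and Clec3a, among them cartilage genes (Chad) and stress or cytokine genes (Atf3, Cxcl1), and a group almost wholly from 1 library cannot be told apart from that library. Genes of an NF-kB and AP-1 list made up 0.809% of its control UMIs, against 0.209% to 0.418% in the other sub-clusters. Without it, 389 control and 477 CIA cells remained, Icam1 stood at 131 and 78.2 CPM, and the difference was 1.67-fold (1.47 to 1.90), which no longer passes the size rule. Venular-marker Icam1 was then 1.36-fold lower, and arterial-marker Icam1 was still 3.97-fold lower. In sub-cluster 0, with Ubd and Il33 among its leading genes, where 49.5% of cells had venular markers, Icam1 was equal within counting error, 223 CPM in 128 control cells and 237 CPM in 80 CIA cells (ratio 1.06, 0.886 to 1.27). The selectins were higher in CIA in that sub-cluster, Selp at 1292 and 1657 CPM (ratio 1.28, 1.20 to 1.38) and Sele at 656 and 1013.8 CPM (ratio 1.55, 1.41 to 1.70). Vcam1 there stood at 137 and 174 CPM (ratio 1.27, 1.02 to 1.58). The other sub-clusters did not share one direction. Sub-cluster 1 (70 and 57 cells) had both haemoglobin genes (Hba-a2, Hbb) and cell-cycle genes (Mki67, Top2a) among its leaders. Its median depth was 14019 UMIs in control and 9204 in CIA. There the ratios were below 1, at 0.350 (0.233 to 0.511) for Icam1, 0.427 (0.364 to 0.498) for Selp and 0.401 (0.321 to 0.496) for Sele. In sub-cluster 3 (77 and 181 cells) they were 1.10 (0.775 to 1.58), 1.59 (1.31 to 1.94) and 0.929 (0.755 to 1.15). In sub-cluster 5 (55 and 73 cells) Icam1 was at 0.194 (0.0993 to 0.353), with 54 and 14 UMIs. In sub-cluster 4 (59 and 86 cells) 82.1% of cells had arterial markers and 0% venular markers. There Selp stood at 6.98 and 4.87 CPM (5 and 4 UMIs). Sele stood at 16.8 and 32.9 CPM (12 and 27 UMIs), a ratio of 1.96 (0.962 to 4.25). The lower selectin sums of arterial-marker cells were thus not seen in this sub-cluster.

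**Figure D3:**
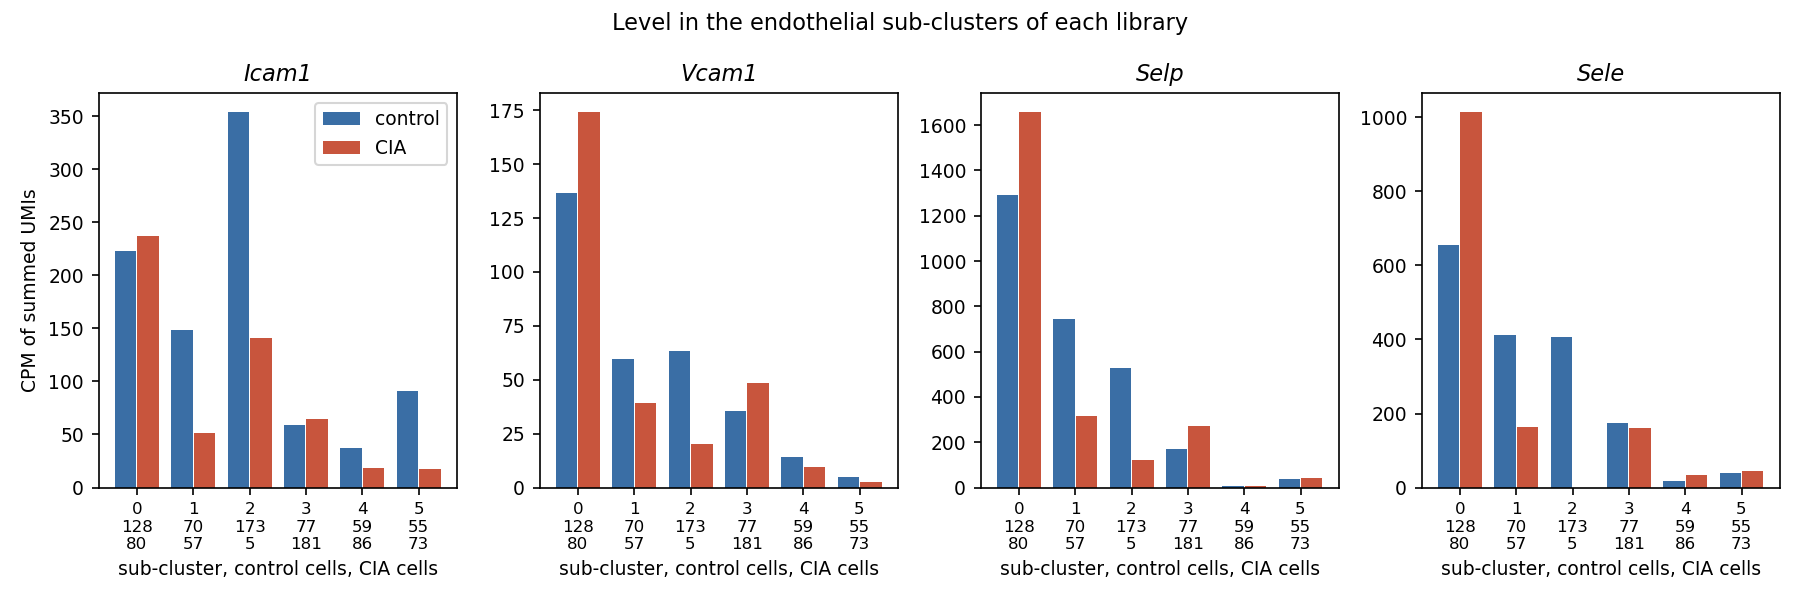
Level of each gene (CPM of summed UMIs) in 6 endothelial sub-clusters of the control and CIA libraries, with the number of control and CIA cells under each sub-cluster. Sub-cluster 2 has 5 CIA cells, so its CIA bars rest on few UMIs, while sub-cluster 0 has the highest Selp in both libraries, 1292 and 1657 CPM.

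The cells of the control endothelium also held more UMIs of cartilage markers, 0.0404% of UMIs against 0.00211% in CIA, with a median of 2 and 0 chondrocyte markers per cell. The same list held 0.0406% and 0.00255% of macrophage UMIs. Granulocyte-lineage markers made up 0.0898% and 0.0293% of endothelial UMIs. The part of these in the Icam1 difference was not tested.

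In stromal cells Icam1 was low. Lining cells stood at 51.8 CPM in control (316 UMIs) and 31.3 CPM in CIA (564 UMIs), a ratio of 0.605 (0.526 to 0.696). An Icam1 UMI was present in 39.6% and 30.1% of lining cells, which had similar depth (median 13443 and 13014 UMIs), and in 12% and 11% after thinning. Fibroblasts stood at 47.4 and 32.5 CPM, a ratio of 0.686 (0.634 to 0.743). When cells that passed 2 lineage gates were kept in, the fibroblast ratio was 0.445. Among fibroblast subsets the ratio was 0.544 in Sectm1-Cbln1 cells, 0.687 in Egfl6-Mfap2 cells and 0.730 in cells of no subset. In the Aqp3-Fam180a subset, 30 control and 44 CIA UMIs gave 39.4 and 48.2 CPM, with a ratio of 1.22 whose interval (0.751 to 2.01) includes equality. Summed over all cells kept, Icam1 was 3.09-fold lower in CIA (153 and 49.4 CPM).

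**Figure D4:**
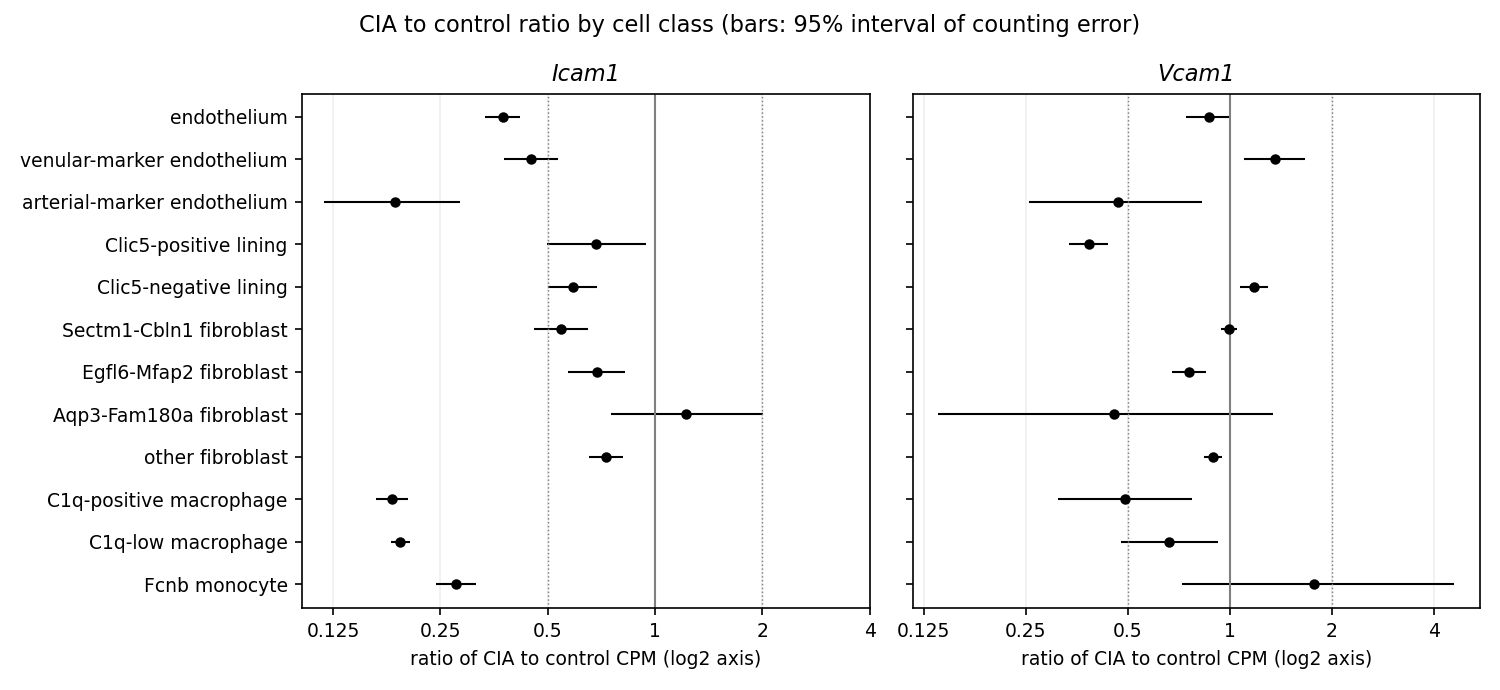
Ratio of CIA to control (log axis) of Icam1 and Vcam1 by cell class, with 95% intervals that cover counting error only. Icam1 lies below 1 in every class drawn except the Aqp3-Fam180a fibroblasts, while Vcam1 lies between 0.383 in Clic5-positive lining and 1.36 in venular-marker endothelium among classes with at least 100 UMIs, leaving out macrophages.

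The genes that act with the 4 adhesion molecules were read from lists of the same pathway. Among NF-kB and AP-1 regulators, the list nearest to Icam1, 7 of 16 measured genes were lower in CIA endothelium and none higher, where 1.56% of all measured genes were lower. The median log2 ratio of the list was -0.83, beside 0.09 for all measured genes. Named after their values were seen, the 7 were the NF-kB targets Nfkbia, Nfkbiz and Tnfaip3, the interferon factor Irf1, and the AP-1 or stress factors Jun, Fos and Atf3. Nfkbia, an NF-kB inhibitor that NF-kB itself induces, stood at 1102 CPM in control and 393 CPM in CIA endothelium, 2.80-fold lower, while the NF-kB subunits Nfkb1 (66.1 and 90.2 CPM) and Rela (54.9 and 63.2 CPM) did not pass the size rule. In macrophages 8 of 16 were lower, beside 4.44% of all genes (median -1.02, beside 0.09). In fibroblasts 5 of 16 were lower, Tnfaip3, Jun, Fos, Atf3 and Klf2, beside 1.37% (median -0.66, beside 0.05). In lining 3 of 14 were lower, Jun, Fos and Atf3, beside 1.62% (median -0.43, beside 0.02). Atf3 was the lowest listed gene in lining, 3.74-fold lower, and in fibroblasts, 4.03-fold lower. The endothelial values include sub-cluster 2, with 173 control and 5 CIA cells, where this list made up 0.809% of control UMIs. In each of the other sub-clusters the list's share of UMIs was also lower in CIA. It ranged there from 0.209% to 0.418% in control and from 0.170% to 0.221% in CIA. How far the calls of single genes hold without sub-cluster 2 was not tested. The part of these genes' movement in the Icam1 difference was not tested.

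The remaining lists held few genes past the size rule. Of all measured genes 1.56% were lower and 0.264% higher in CIA endothelium. Among endothelial activation genes 3 of 7 measured were lower there, Ccl2, Cxcl1 and Il6. Cxcl1 was 7.86-fold lower (334 and 42.5 CPM) and Il6 5.42-fold lower (106 and 14 UMIs). Cxcl1 was among the leading genes of the mostly control sub-cluster 2, which these values include. Of the junction and transmigration genes, which leukocytes pass on their way out of the vessel, none of 13 measured passed the rule in endothelium, including Icam2 (396 and 439 CPM), Cdh5 (708 and 923 CPM) and Esam (675 and 723 CPM). None of 6 linkers that anchor ICAM-1 and VCAM-1 to actin and none of 5 shedding and storage genes passed it there. With so few of all genes past the rule in endothelium, a count of none in lists this short is no result about these genes. Vwf, which is stored with P-selectin, stood at 369 and 280 CPM in endothelium, a ratio of 0.758 close to that of Selp. Among selectin ligands and the enzymes that make them, Cd24 alone passed in endothelium, 20.6-fold lower (115 and 4 UMIs), and in macrophages, 20.7-fold lower (212 and 22 UMIs). Its levels were low and alike in these classes, 16.2 and 13.6 CPM in control and 0.788 and 0.659 CPM in CIA. Levels of that kind were read as background for Selp outside the endothelium, and background was not measured for Cd24.

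On the leukocyte side, 1 of 8 measured genes of the integrin list was lower in CIA macrophages and none higher. Of all genes measured in macrophages 4.44% were lower and 0.542% higher. The chains of LFA-1 did not pass the size rule. Itgam, the alpha chain of Mac-1, was not analysed here. In macrophages Itgal, the LFA-1 alpha chain, stood at 46.3 CPM in control and 54.3 CPM in CIA, and Itgb2, the shared beta chain, at 281 and 450.1 CPM, with a ratio of 1.60 (1.55 to 1.66). Itga4, the VLA-4 alpha chain, stood at 24.3 and 22.4 CPM. In fibroblasts Itgb2 was the only listed gene higher, 2.04-fold (6.47 and 13.2 CPM), where 0.22% of all measured genes were higher. Its level in macrophages was 281 and 450.1 CPM. The cytokine Il1b was lower by the rule in all 4 main classes, for example 269 and 96.8 CPM in macrophages. Background was not measured for Il1b in the other classes. Not every macrophage subset shared the lower call of Il1b. Of the measured genes of the cytokine list, 0 of 9 were lower in C1q-positive macrophages, beside 3.55% of all measured genes. The counts were 0 of 7 in Fcnb monocytes (beside 5.24%) and 1 of 9 in C1q-low macrophages (beside 3.72%). With at least 20 UMIs they were 1 of 12, 0 of 10 and 2 of 12, in the same order. No conclusion is drawn from counts in lists this short.

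The genes most like each member over 14 cell classes in both libraries (28 points, Pearson r of log2(CPM + 10), 12555 genes) differed between the members. The points of a class share their library's depth, so r is a description. For Icam1 they were Zfand5 (0.92), Nfkbia (0.90), LOC100909712, Nuak2 and Ppp1r15a. For Vcam1 they included Clec3b (0.92), Vegfd, Sned1 and Lurap1. Those of Selp included the endothelial genes Clec14a (0.99), Emcn, Vwf and Rasip1, and those of Sele included RGD1310587 (0.99), Scgb1a1, Ptprr and Hoxb7. Selp and Sele had r = 0.97 with each other, while Icam1 and Vcam1 had r = -0.36.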

How the data were processed

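The authors deposited a matrix of counts of genes by cells for each library, taken here to be raw UMIs. The labels' protocols name Chromium 3' version 2 libraries, but the length of the barcodes differs from that kit. The build was mRatBN7.2, per the submitters' processing notes. For aligner, counting and cell calling, nothing is given in the sources used here. There were 5456 control barcodes with 76927821 UMIs, and 8622 CIA barcodes with 105752977. Cells with under 200 genes or over 20% mitochondrial UMIs were removed (45 and 47), as were Scrublet doublets (62 and 166). Cells with UMIs of at least 7 of 11 endothelial, 8 of 18 macrophage or 9 of 13 fibroblast markers formed the classes. Just at these minimums lay 35, 144 and 540 control and 21, 295 and 713 CIA cells. Lining cells had at least 10000 CPM of Prg4, C1q-positive macrophages at least 500 CPM of C1q genes and Fcnb monocytes at least 300 CPM of Fcnb. These limits were set from the markers' distributions, without the 4 genes.

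Ratios of summed UMIs carry exact conditional intervals, levels exact Poisson and shares exact binomial (Clopper-Pearson) ones, all at 95%. A sum of 0 was set to a floor of 3 counts. Sub-clusters came from Leiden clustering (resolution 0.5, 30 components, 2000 variable genes, 15 neighbours). Named genes were the 4 members, the listed pathway genes with the 3 highest and 3 lowest ratios past the rule in endothelium and the highest and lowest in each other class, and the 5 genes most like each member; others are named as members of a count. Some genes that the rule gave are not reported here. The members, lists and subset definitions were chosen with earlier results of these data known. The ratio code was tested on simulated data. Tools were Python 3.11.15, scanpy 1.11.5, scipy 1.17.1 and, for TMM factors, edgeR 4.0.16 in R 4.3.3.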

Additional observations from a re-analysis of the deposited data

Results flagged for a closer look

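Pairs of cell groups differed in the direction of the ratio of CIA to control for 3 of the genes, and none of these differences was tested, since each group had 1 library. The Vcam1 ratio of CIA to control was 1.18 in Clic5-negative lining and 0.383 in Clic5-positive lining. The Selp ratio was 1.23 in venular-marker endothelium and 0.0370 in arterial-marker endothelium, where the CIA sum held 8 UMIs. The Sele ratio was 1.26 in venular-marker and 0.232 in arterial-marker endothelium. In sub-cluster 4, where 82.1% of cells had arterial markers, Selp had 5 and 4 UMIs and the Sele ratio was 1.96 (0.962 to 4.25). Without the sub-cluster of mostly control cells, the venular-marker ratios were 1.02 for Selp and 1.26 for Sele.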

How the results depend on the processing

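Alternatives were run for all 4 genes in endothelium and its venular- and arterial-marker cells, for Icam1 in macrophages and their subsets, and for Icam1 and Vcam1 in lining and fibroblasts, not for the selectins outside endothelium. None of those past the size rule changed direction. Alternatives that keep cells passing 2 gates, lower the Prg4 limit, weight subsets or leave out a sub-cluster were chosen after seeing the data. The Icam1 endothelial ratio, 0.374, was 0.430 with gates 1 marker lower, 0.316 with Leiden clusters, 0.309 with cells of 2 gates kept, 0.440 at the control mix of subsets and 0.599 without the sub-cluster of mostly control cells. Selp in endothelium, 0.760, was 0.720 with TMM factors, 0.685 with clusters, 0.691 with cells of 2 gates and 0.95 at the control mix. Sele, 0.746, was 0.671 with clusters, 0.695 without the top cell, 0.673 with cells of 2 gates, 0.880 at the control mix and 0.813 without the sub-cluster. Vcam1 in lining, 0.808, was 0.745 with lower gates, 2.08 with clusters and 0.906 with a Prg4 limit of 5000 CPM. Vcam1 in fibroblasts, 1.06, was 1.00 with clusters and 1.11 as a mean over cells. Icam1 in macrophages, 0.190, was 0.208 with clusters and 0.204 with cells of 2 gates, and in fibroblasts, 0.686, it was 0.445 with cells of 2 gates. Venular-marker Icam1, 0.450, was 0.598 with lower gates, and venular-marker Vcam1, 1.36, was 1.10 as a mean over cells. With at least 20 UMIs in place of 100, 33 genes were higher and 207 lower in endothelium (21 and 124), 270 lower in lining (146) and 269 lower in fibroblasts (150). TMM factors shifted all log2 ratios by -0.12 in venular-marker endothelium and by 0.10 in Clic5-positive lining, where 53.9% of calls were then higher in place of 42.4%. The cause of these shifts was not tested. No paired analysis was possible because each group has 1 library. Low sums limit Vcam1 and the selectins in arterial-marker cells and the Aqp3-Fam180a subset.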
